A study of Homo sapiens with 2 samples.

Results

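The genes described here make cholesterol and fatty acids. They are 33 named genes, all present among the 30843 gene symbols of the deposited tables, and they were chosen by symbol: 17 of sterol synthesis and transfer, 5 that control the transcription factor SREBP, and 11 that make, modify or activate fatty acids. RNA was sequenced from 2 cultured human lung cancer lines, with 1 library each. PC9 is a lung adenocarcinoma line with an activating EGFR deletion, and MTAC-P was derived from PC9 and resists EGFR tyrosine kinase inhibitors (EGFR-TKI). Both grew in DMEM with serum, no inhibitor is named at harvest, and the sources used here do not give how MTAC-P was selected or whether it is 1 clone.

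Cells build cholesterol from acetyl-CoA by way of mevalonate, squalene and lanosterol, and build palmitate from malonyl-CoA, which is then elongated and desaturated. SREBP transcription factors switch on both routes. SCAP escorts SREBP from the endoplasmic reticulum to the Golgi for cleavage when sterols are scarce, and INSIG proteins hold the pair back when sterols are plentiful. Lung adenocarcinoma cells make much of their own fat, and signals from EGFR are known to reach SREBP.

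SREBP acts on sterol regulatory elements near gene starts, together with the CCAAT-binding factor NF-Y. Whether all members share this control was not tested. Stretches of 5 of their promoters are shown, written 5′ to 3′ on the gene's own strand, from RefSeq (GRCh38.p14), all upstream of the annotated start. Capitals mark TCACNCCAC, a core of the sterol regulatory element, and CCAAT, which reads ATTGG on the other strand.
SREBF2 (chr22:41832955-41833054, + strand): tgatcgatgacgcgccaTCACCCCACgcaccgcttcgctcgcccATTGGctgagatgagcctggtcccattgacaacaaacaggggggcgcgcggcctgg
INSIG1 (chr7:155297688-155297775, + strand): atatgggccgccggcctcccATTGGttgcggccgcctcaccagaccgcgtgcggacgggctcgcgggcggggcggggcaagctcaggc
HMGCS1 (chr5:43313513-43313602, - strand): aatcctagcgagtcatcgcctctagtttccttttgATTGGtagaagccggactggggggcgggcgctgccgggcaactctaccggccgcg
MVD (chr16:88663162-88663261, - strand): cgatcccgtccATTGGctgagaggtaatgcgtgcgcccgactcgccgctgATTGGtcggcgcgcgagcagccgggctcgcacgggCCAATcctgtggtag
SCD (chr10:100346993-100347092, + strand): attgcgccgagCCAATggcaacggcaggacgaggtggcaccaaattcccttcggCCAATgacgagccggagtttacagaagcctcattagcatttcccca
The RefSeq table held 43 windows for 29 of the 33 genes, each running from 250 bases before to 50 after a start. CCAAT on either strand was found in 25 of these windows (58.1%), against 34.6% of all 35116 windows and 34.8% of the 11676 windows of genes compared below. By group it was in 13 of 18 windows of sterol genes (72.2%), 2 of 6 of control genes (33.3%) and 10 of 19 of fatty acid genes (52.6%). TCACNCCAC was found in 2 windows (4.65%, against 1.13% of all), those of SREBF2 and ACSL1. The ACSL1 window (chromosome 4, 184805504 to 184805803) does not hold the start of its listed transcript ACSL1-201. The E-box CACGTG was in 4 (9.30%, against 7.26% of all and 9.43% of windows of genes compared), of SCAP, INSIG1, LSS and ELOVL5, and the Sp1 box GGGCGG was in 35 (81.4%, against 45.0%, or 67.6% of windows of genes compared). CACGTG reads the same on both strands, and some windows of 1 gene overlap, so windows are not independent. The SREBF2 stretch also lies in an exon of the antisense gene SREBF2-AS1. These are matches of letters, not measured binding.

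Each transcript carries 1 value per line, taken as FPKM (fragment numbers corrected for the length of a transcript and the size of the library), and a gene's level is the sum over its listed transcripts. All listed values add up to 693444 for PC9 and 685082 for MTAC-P. Read numbers are unknown, and with 1 library a line no difference has a replicate check, a standard error or a p-value. Differences are given as log2((MTAC-P + 1)/(PC9 + 1)), the log2 ratio, over the 11435 symbols with a mean of at least 1 FPKM. Epithelial markers were present in both lines: 8 of 8 were compared, summing to 3475 FPKM in PC9 and 3680 in MTAC-P. KRT18 led this sum, at 2328.5 in PC9 and 2719.58 in MTAC-P, and CDH3 was the lowest, at 14.4 and 16.7. Of the 8, 6 had a log2 ratio below 0, and their median was -0.02. Of cell types rich in lipid genes, 4 adipocyte markers summed to 0.243 and 0.153 and 4 hepatocyte markers to 0.0184 and 0.0399. Of the leukocyte, fibroblast and endothelial markers, CD68, COL1A1 and CDH5 reached the mean of 1.

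Most of the 33 genes were a little lower in MTAC-P, and few differed by much. Of the 32 compared, 26 had a log2 ratio below 0, a share of 81.2% against 52.4% of all symbols compared. Their median was -0.20, beside -0.02 over all symbols, whose quartiles were -0.29 and 0.23. At least 1.2-fold lower were 14 of the 32 (43.8%, against 26.8% of all), and 2 were at least 1.2-fold higher (22.8% of all). At 2-fold or more, 2 were lower (4.29% of all symbols) and none was higher (3.48% of all). The 2, SCAP and INSIG2, both belong to SREBP control. At 1.5-fold the counts were 3 lower (11.2% of all), with FASN as the third, and 1 higher (8.96% of all), HSD17B7. Differences of 2-fold either way were thus about as rare in these genes (6.25%) as among all symbols (7.77%), while small ones lay mostly on the lower side. The plot of levels by gene shows these pairs of values.

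**Figure D1:**
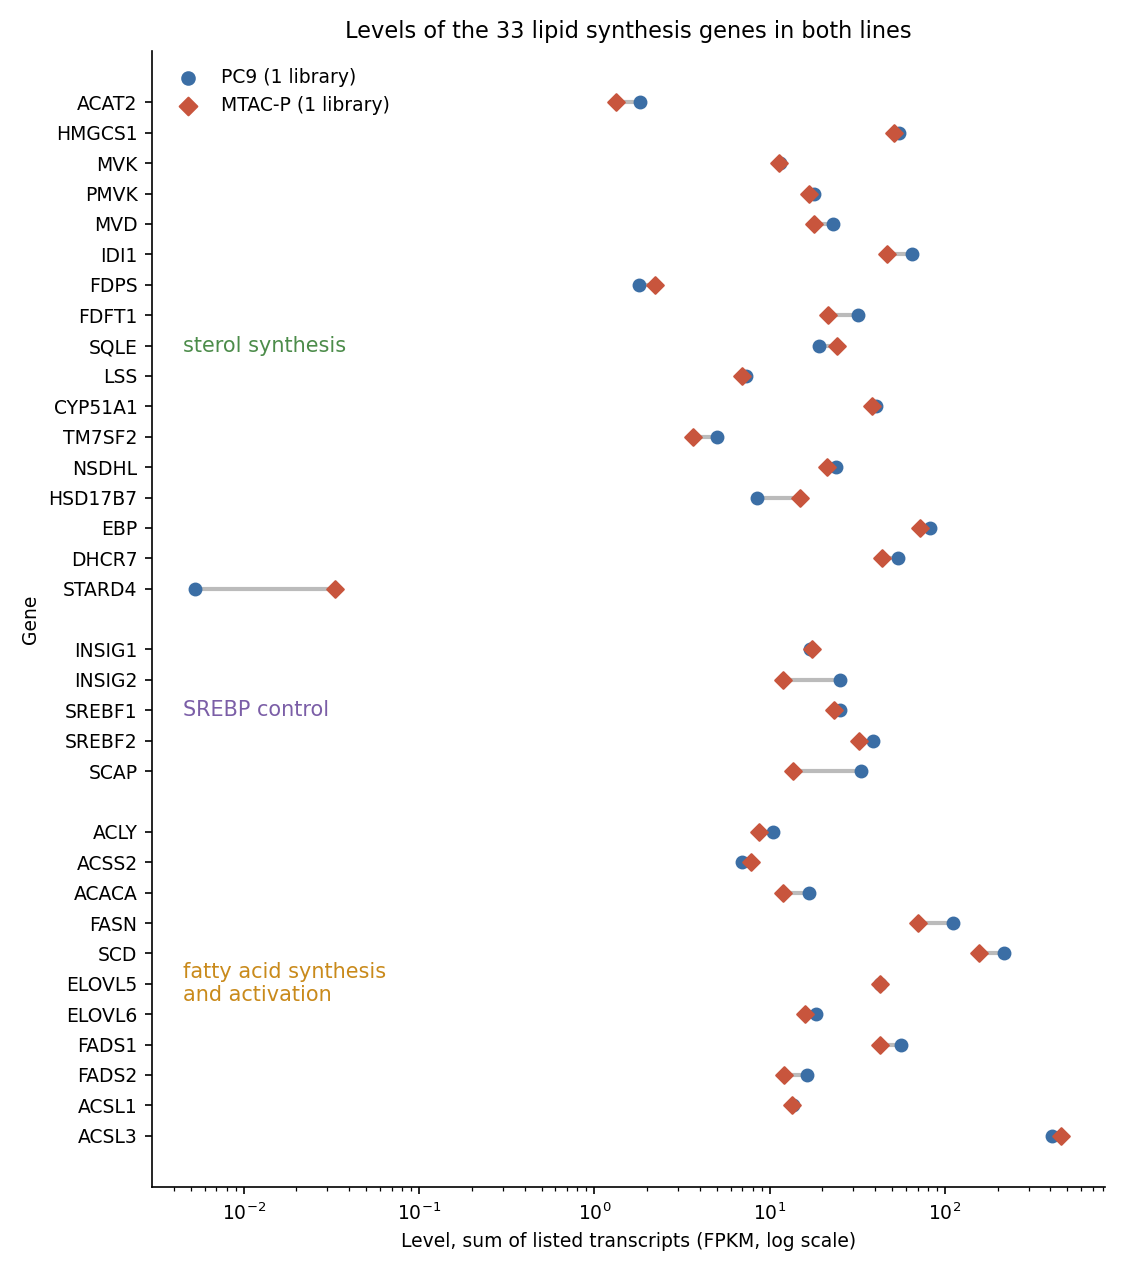
Level of each of the 33 genes (sum of listed transcripts, FPKM, log scale) in PC9 (circles) and MTAC-P (diamonds), 1 library each, in the order of the pathway. In 26 of the 32 genes compared the diamond lies left of the circle, by the widest margin for SCAP (33.1 and 13.6) and INSIG2 (25.3 and 12), and STARD4 lies near 0 in both lines.

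In the mevalonate part of the sterol route, levels were similar or lower in MTAC-P. HMGCS1, which condenses acetoacetyl-CoA into HMG-CoA, stood at 54.8 in PC9 and at 50.9 in MTAC-P, in FPKM, with a log2 ratio of -0.10. ACAT2, the thiolase that supplies acetoacetyl-CoA, was low, at 1.81 and 1.32 (-0.28). The kinases that phosphorylate mevalonate were nearly equal between lines: MVK stood at 11.4 in both (0.00) and PMVK at 17.8 and 16.7 (-0.09). MVD, which decarboxylates the product to isopentenyl diphosphate, stood at 23.0 and 17.9 (-0.34). IDI1, its isomerase, stood at 64.5 and 46.7 (-0.46). By gene sums the last 2 steps before the prenyl chain were thus lower by more than the kinases. The IDI1 ratio was -0.27 by complete coding transcripts and 0.63 by its principal transcript.

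Around squalene the genes went both ways. FDPS, which makes farnesyl diphosphate, was listed at only 1.80 and 2.22 (0.20), but 2 of its 8 GENCODE coding transcripts were listed. FDFT1, the squalene synthase that commits farnesyl diphosphate to sterols (chromosome 8, 11795573 to 11839309), had the lowest ratio of the sterol group. It stood at 31.8 and 21.6 (-0.54). SQLE, the squalene epoxidase of the next step (chromosome 8, 124998497 to 125022283), was higher, at 19.1 and 24.2 (0.32). LSS, which closes the ring to lanosterol, stood at 7.33 and 6.95 (-0.07). FDFT1 and SQLE are adjacent steps on the same chromosome and differed in direction, each from 1 listed transcript. GENCODE has 14 coding transcripts of FDFT1 and 4 of SQLE.

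From lanosterol to cholesterol, 5 of 6 genes had ratios below 0. CYP51A1, the lanosterol demethylase, stood at 40.7 and 38.4 (-0.08), and NSDHL, which acts in removing other methyl groups, at 24.0 and 21.4 (-0.16). EBP, the sterol isomerase, was the most abundant of the 16 sterol members compared, at 82.8 and 71.7 (-0.20). Neither of its 2 listed transcripts is a complete coding model. DHCR7, which makes cholesterol in the final step, stood at 54.2 and 44.0 (-0.29), and the sterol reductase TM7SF2 at 5.03 and 3.64 (-0.38). HSD17B7, a ketosteroid reductase, had the highest ratio of the 32, at 8.49 and 14.9 (0.75). STARD4, a carrier of cholesterol between membranes, was listed at 0.00531 and 0.0332 and was not compared. Over the 16 sterol genes compared the median was -0.13, with 13 below 0 and none at 2-fold, and their added levels were 448 in PC9 against 394 in MTAC-P (87.8%). By principal transcripts alone, 9 of 15 were below 0 (60.0%, against 50.4% of all symbols), 4 were lower by 1.2-fold or more (24.6% of symbols) and another 4 higher by as much.

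Among the 5 control genes were the lowest 2 ratios of the 32, those of SCAP and INSIG2. SREBF2, which encodes the SREBP that favours sterol genes, stood at 38.8 and 32.2 (-0.26), and SREBF1, whose products favour fatty acid genes, at 25.3 and 23.3 (-0.12). INSIG1, itself an SREBP target, was nearly equal at 17.0 and 17.5 (0.04). INSIG2, which is less dependent on SREBP, stood at 25.3 and 12 (-1.02), just past 2-fold. SCAP stood at 33.1 and 13.6 (-1.22), and 2.70% of all symbols had a lower ratio. The median of the group was -0.26.

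Both 2-fold differences lay in part or wholly in short transcripts that are not complete coding models. SCAP-201, the complete coding transcript of 4394 nt (23 exons), stood at 12.4 in PC9 and 12.9 in MTAC-P (0.05). SCAP-204 (chromosome 3, 47428513 to 47475597), a 683 nt model whose coding sequence lacks its end, stood at 16.0 and 0.0247 (-4.05). It held 48.3% of the gene's level in PC9 and 0.181% in MTAC-P. SCAP-205, a 546 nt non-coding transcript, had 2.40 in PC9 against a listed 0 in MTAC-P. Counted from complete coding transcripts alone, SCAP was level between the lines.

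INSIG2 showed the same in part. INSIG2-201, its complete coding transcript (2590 nt), stood at 18.0 and 12 (-0.55). INSIG2-202, a 574 nt transcript annotated for nonsense-mediated decay, had 7.34 in PC9 against a listed 0 in MTAC-P, and such a 0 can be a failed estimate. Without it INSIG2 was lower by less than 2-fold.

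In INSIG1 an equal sum held transcripts that went opposite ways. INSIG1-201, the principal transcript, stood at 16.5 and 13 (-0.32). INSIG1-203 stood at 0.00469 and 3.74 (2.24), and its share of the gene was 0.0276% in PC9 and 21.4% in MTAC-P. For SREBF1 the principal SREBF1-201 stood at 14.8 and 10.3 (-0.49), while SREBF1-204, a decay transcript, stood at 2.72 and 4.54 (0.57). SREBF2-201 stood at 33.2 and 25 (-0.39). The principal transcripts of INSIG1, INSIG2, SREBF1 and SREBF2 were thus all lower in MTAC-P, with ratios from -0.55 to -0.32. That of SCAP was not. By principal transcripts, 50.4% of all symbols were below 0 and 24.6% at least 1.2-fold lower. INSIG1 was level by complete coding transcripts, at 16.7 and 17.5 (0.06).

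**Figure D2:**
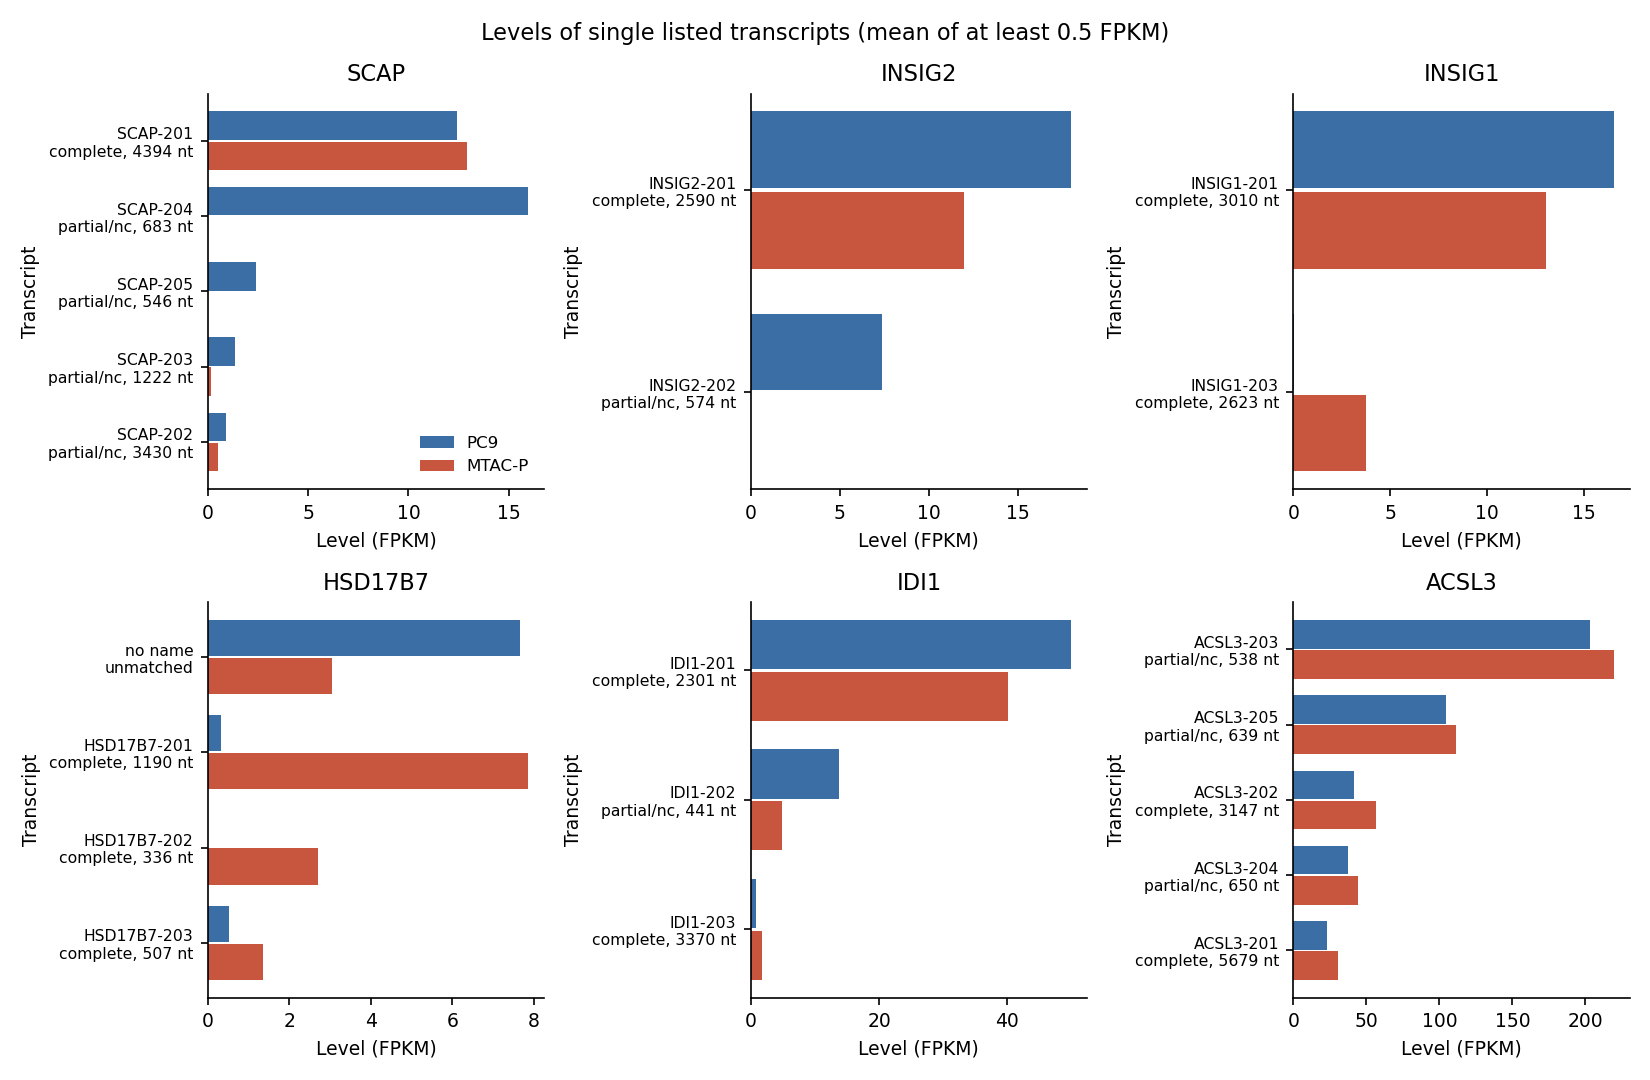
Level (FPKM) of each listed transcript with a mean of at least 0.5, in PC9 (blue) and MTAC-P (red), for 6 of the genes; labels give the GENCODE 29 name, whether the model is complete and coding, partial or non-coding (partial/nc), or not in GENCODE 29 (unmatched), and its length. SCAP-204 (16.0 and 0.0247) and INSIG2-202 (7.34 and 0) are at or near 0 in MTAC-P, and HSD17B7-201 stands at 0.313 and 7.86.

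Among sterol genes HSD17B7 (chromosome 1, 162790702 to 162812817) differed most between its transcripts. HSD17B7-201, the principal transcript of 1190 nt, stood at 0.313 in PC9 and 7.86 in MTAC-P (2.75). Another listed transcript of the gene, not in GENCODE 29, stood at 7.66 and 3.05 (-1.10). It held 90.2% of the gene's level in PC9 and 20.4% in MTAC-P, so the gene's ratio of 0.75 joins values on both sides of 0. HSD17B7 has a close pseudogene copy, and whether reads were shared with it was not tested. IDI1-201 stood at 49.9 and 40.1 (-0.31), and the 441 nt partial IDI1-202 at 13.8 and 4.83 (-1.35). The principal transcript IDI1-203 was low, at 0.806 and 1.79 (0.63), so that IDI1 was higher in MTAC-P by principal transcripts and lower by the sum. TM7SF2-201 stood at 2.37 and 3.10 (0.28) and TM7SF2-202 at 2.65 and 0.544 (-1.24).

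Over all members, 63 transcripts of 32 genes had a mean of at least 1. Of these 11 reached 2-fold (17.5%, against 16.6% of all 19406 transcripts at that mean), 8 lower (8.88% of all) and 3 higher (7.76%). Among the 14 that were incomplete or non-coding, 5 reached 2-fold (35.7%, against 35.6% of all such transcripts), all lower (20.5% of such transcripts; 15.1% were higher): SCAP-204, SCAP-205, INSIG2-202, IDI1-202 and FADS1-202. Of the 43 complete coding ones, 4 did (9.30%, against 11.4%), namely HSD17B7-201, HSD17B7-202 and INSIG1-203, which were higher (5.67% of all), and TM7SF2-202, which was lower (5.74%). The other 2 were not in GENCODE 29. Taken either way, these shares lie near those given for all transcripts. Incomplete or non-coding transcripts differed by 2-fold about 3 times as often as complete coding ones in the tables as a whole (35.6% and 11.4%).

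FASN, SCD and ACACA had the lowest ratios of the fatty acid group. FASN, the synthase that makes palmitate (chromosome 17, 82078333 to 82098332), stood at 111 and 70.0 (-0.66), from 1 complete transcript of 8565 nt with 43 exons. SCD, which desaturates stearate to oleate (chromosome 10, 100347124 to 100364834), stood at 216 and 157 (-0.46), and its complete transcript SCD-201 at 208 and 157 (-0.41). ACACA, the acetyl-CoA carboxylase that makes malonyl-CoA, stood at 16.7 and 11.9 (-0.46), from transcripts none of which is in GENCODE 29. In these 3 genes MTAC-P had 62.9% to 72.7% of the PC9 level.

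The genes that supply acetyl-CoA differed less. ACLY, which cleaves citrate, stood at 10.4 and 8.70 (-0.24). ACSS2, which activates acetate, stood at 6.92 and 7.86 (0.16), but its complete coding transcripts at 2.01 and 0.983 (-0.60). The higher sum came from a transcript not in GENCODE 29, at 4.91 and 6.88.

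Desaturases of polyunsaturated fatty acids were both lower: FADS1 stood at 56.1 and 42.8 (-0.38) and FADS2 at 16.4 and 12.1 (-0.41). Their annotated spans on chromosome 11 overlap (61799625 to 61829318 for FADS1, 61792980 to 61867354 for FADS2) on opposite strands, and whether counting used strand is not stated, so their reads may be shared. Of the elongases, ELOVL5, which acts on polyunsaturated chains, stood at 42.9 and 42.7 (-0.01), and ELOVL6, which lengthens palmitate, at 18.4 and 16.0 (-0.19). By gene sums these desaturases thus differed more than the elongases. By principal transcripts the ratios lay closer, at -0.27 for FADS1, -0.22 for FADS2, -0.13 for ELOVL5 and -0.19 for ELOVL6.

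The 2 member ligases, which activate fatty acids with coenzyme A, were level or higher. ACSL1 stood at 13.5 and 13.4 (-0.02). ACSL3, a ligase of lipid droplets and the endoplasmic reticulum (chromosome 2, 222860934 to 222944639), had the highest level of the 33 genes, at 409 and 462 (0.17). Of that level 49.5% in PC9 and 47.5% in MTAC-P was ACSL3-203, a 538 nt decay transcript. Its complete transcripts ACSL3-202 (41.5 and 56.6, 0.44) and ACSL3-201 (23.2 and 30.6, 0.38) were both higher in MTAC-P, as were its other 3. With complete coding transcripts only, SCD and not ACSL3 was the most abundant of the 33.

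Of the 11 fatty acid genes, 9 had ratios below 0, none reached 2-fold and the median was -0.24. Added over genes their level was 918 in PC9 against 845 in MTAC-P (92.0%), a sum led by ACSL3. Over complete coding transcripts it was 540 and 451 (83.6%). The same choice left the medians at -0.25 for 10 fatty acid genes, -0.09 for 15 sterol genes and -0.39 for 5 control genes, beside -0.01 over 9862 symbols. No gene was then 2-fold lower (3.01% of symbols), and HSD17B7 was higher (2.82; 2.65% of symbols). By principal transcripts, likewise, none was 2-fold lower (3.35% of 8771 symbols) and HSD17B7 was higher (3.28%). By the most abundant transcript of each gene, HSD17B7 was the 1 lower (-1.10; 5.3% of 11092) and none was higher (4.43%). The ranges of the 3 groups overlap, and 1 library a line gives no test between them.

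**Figure D3:**
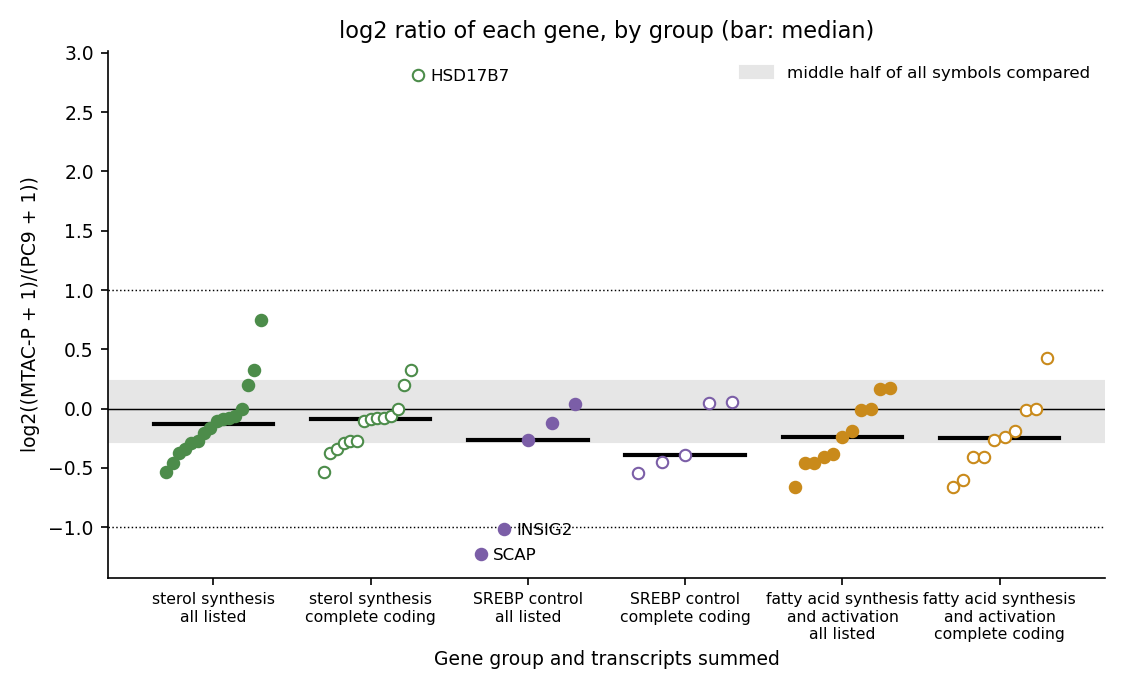
log2((MTAC-P + 1)/(PC9 + 1)) of each gene by group, from all listed transcripts (filled) and from complete coding transcripts (open); bars are medians, dotted lines mark 2-fold and the band spans the quartiles of all symbols compared (-0.29 to 0.23). SCAP and INSIG2 are past 2-fold lower with all transcripts and not with complete ones, while HSD17B7 moves up to 2.82.

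Neighbouring parts of lipid metabolism were listed apart from the members, and they varied in direction. Of the 6 other sterol genes compared, 4 were below 0 and none at 2-fold (median -0.18). LBR, a sterol reductase of the nuclear envelope, stood at 211 and 217 (0.04). Prenyl and dolichol genes, which leave the same route before squalene, had a median of 0.06. Of 12, 1 was 2-fold higher (3.48% of all symbols) and none lower (4.29%): PDSS1, which makes the tail of coenzyme Q, at 7.68 and 16.5 (1.01). Its complete transcript PDSS1-201 stood at 7.68 and 16.1 (0.98). Genes that process SREBP or degrade its partners had a median of 0.04, with none of 10 at 2-fold. The most abundant were PGRMC1 (128 and 127, -0.01) and ERLIN1 (30.3 and 32.7, 0.11).

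The lists of sterol uptake, export and storage and of glycerolipid genes had medians a little above 0 by gene sums. Of 13 genes of sterol uptake, export and storage (median 0.09), SOAT1, which esterifies cholesterol for storage, was the 1 at least 2-fold higher (3.48% of all symbols), at 12.2 and 26.0 (1.04), and none was 2-fold lower (4.29%). Both listed SOAT1 transcripts were higher, the complete SOAT1-201 at 3.98 and 8.90 (0.99). With complete coding transcripts only, the median of 12 genes of this list was -0.04, with 6 below 0 and none at 2-fold. Of 17 glycerolipid genes (median 0.13), 4 were below 0 (52.4% of all symbols), 2 at least 2-fold higher (3.48%) and none 2-fold lower (4.29%). The 2 were PLIN3, a lipid droplet coat protein, at 8.92 and 23.9 (1.33), and DGAT1, which forms triglyceride, at 1.21 and 3.96 (1.17). Each came from 1 complete transcript. The glycerolipid list is mixed, since it also holds the lipases PNPLA2 (-0.48), LIPE (0.16) and MGLL (0.25), which break down stored fat.

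Of 16 other genes of fatty acid synthesis, elongation and activation (median -0.08), 1 was 2-fold higher (3.48% of all symbols) and 1 lower (4.29%), both ligases. ACSL4, which prefers arachidonate, stood at 18.3 and 39.8 (1.08), and ACSL5 at 3.59 and 0.620 (-1.50). Among ligases ACSL3 and ACSL4 were thus higher in MTAC-P, ACSL1 level and ACSL5 lower.

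Fatty acid oxidation, the reverse route, had the lowest median of these lists. Of 20 genes compared, 17 were below 0 (52.4% of all symbols) and 15 were at least 1.2-fold lower (26.8%), with a median of -0.41. The median was -0.41 over 18 genes with complete coding transcripts only. ACAA2 was the 1 at least 1.2-fold higher (22.8% of all symbols), at 8.34 and 16.0 (0.87). The list also holds the regulators PPARA (-0.71), PPARD (-0.49) and PPARG (-0.56), which are not enzymes of the route. At 2-fold, 2 genes were lower (4.29% of all symbols) and none was higher (3.48%). CPT1A, which admits fatty acids to mitochondria, stood at 11.9 and 5.34 (-1.02). ETFDH, which passes their electrons on, stood at 14.4 and 4.24 (-1.56), but its complete transcript ETFDH-201 at 5.20 and 4.24 (-0.24). The member genes of synthesis and the oxidation genes were therefore both mostly lower in MTAC-P. The 16 other genes of fatty acid synthesis were less one-sided, with 10 below 0 (62.5%, against 52.4% of all symbols). At 1.2-fold, 4 of them were lower and 4 higher (26.8% and 22.8% of all symbols). No difference between the lists was tested.

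**Figure D4:**
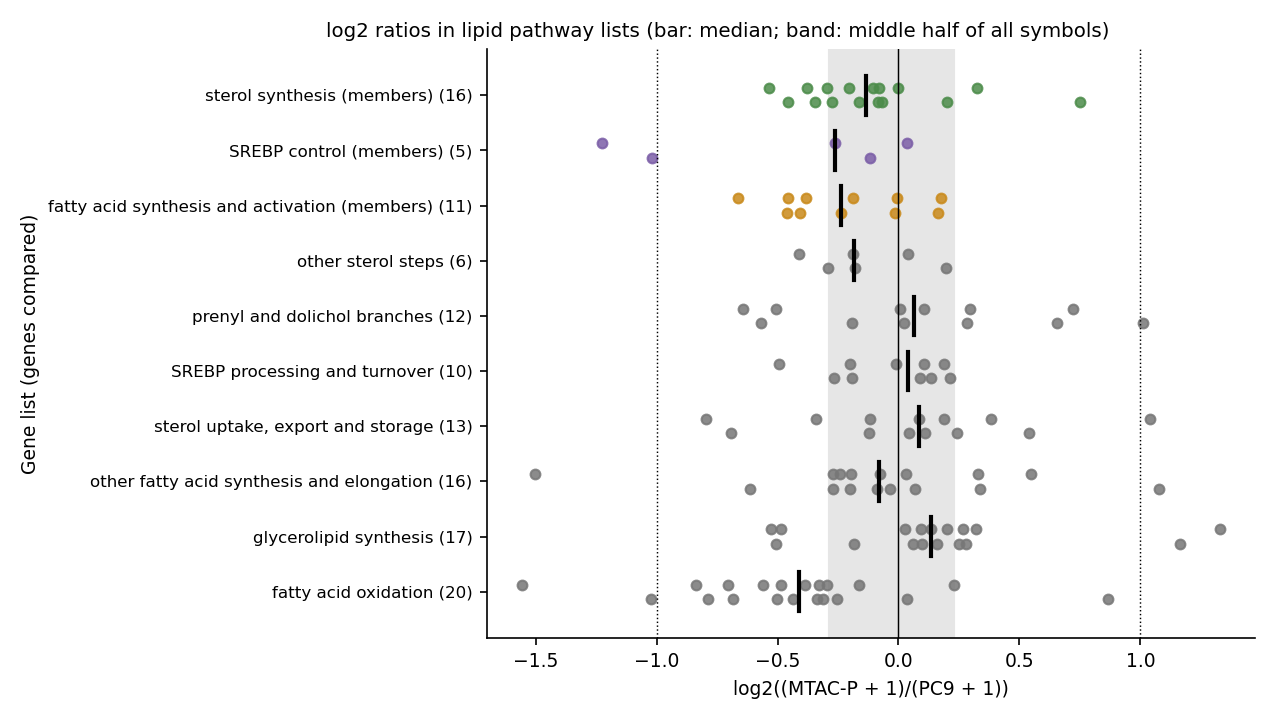
log2((MTAC-P + 1)/(PC9 + 1)) of single genes in the 3 member groups (coloured) and in 7 other lipid lists (grey); numbers in brackets are genes compared, bars are medians, dotted lines mark 2-fold and the band spans the quartiles of all symbols. Fatty acid oxidation has the lowest median (-0.41) and the list labelled glycerolipid synthesis, which also holds lipases, the highest (0.13).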

How the data were processed

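RNA-seq of PC9 and MTAC-P, 1 library each, was used. Each library was assigned by its sample record. Triplicates are mentioned in the series text, but a line has 1 value column; whether cultures were pooled is not stated. The authors used Trim Galore, TopHat and Cufflinks with hg38, per the submitters' processing notes. Versions and annotation: not given in the sources used here. Deposited values, 1 for each transcript, were taken as FPKM because Cufflinks is named; the header gives no unit. No counts or intervals are given, so depth and precision are unknown.

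Each table lists 65535 transcripts, a spreadsheet limit, with IDs up to number 437205; later IDs were not analysed here. The members have 197 coding transcripts in GENCODE release 29 (GRCh38), which gave coordinates and transcript types; 66 were listed. Of 92 listed member transcripts, 78 were in GENCODE 29. A complete coding transcript is one typed protein-coding with no missing end; a principal one carries the APPRIS principal tag.

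Values were summed per symbol (pandas 2.3.3), with a pseudocount of 1 and a minimum mean of 1. A gene was counted at 2-fold on that scale. The named genes were all 33 members, and of each other list those at 2-fold or, with none, the 2 most abundant; transcripts were named at a mean of at least 1. The value of 1 gene of another list is not reported here. Some further transcripts and genes were named after their values were seen, as was the choice of promoters and of genes in the transcript plot. The members and lists were chosen with earlier results of these data known. The steps were tested on simulated data.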

Additional observations from a re-analysis of the deposited data

How the results depend on the processing

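No paired analysis was possible because PC9 and MTAC-P have 1 library apiece, so no replicate could be left out either. The group medians stayed below 0 in every alternative that gave a value: from -0.28 to -0.08 for sterol genes, -0.39 to -0.24 for control genes, -0.46 to -0.17 for fatty acid genes and -0.28 to -0.10 for all. With symbols with 1 listed transcript, or with all coding transcripts listed, no control gene was left. The -0.46 for fatty acid genes is SCD alone, the 1 such gene left with all coding transcripts listed. The -0.28 for sterol genes rests on the 5 with 1 listed transcript. That for all members rests on 7 and 5 genes in these settings. The 2 members at least 2-fold lower became 1 with a pseudocount of 5, with centring on the median of all symbols (INSIG2 at -0.997) or with the highest transcript of each symbol, and 0 with symbols with 1 listed transcript (7 genes left, 6 below 0), with all coding transcripts listed (5 left, 4 below 0), with complete coding transcripts or with principal ones. The last 2 settings, chosen after seeing the data, gave 1 member at least 2-fold higher, HSD17B7, in place of 0. With the highest transcript of each symbol HSD17B7 was the 1 lower (-1.10). SCAP had the opposite sign with the highest transcript (0.051), complete coding transcripts (0.051) and principal transcripts (0.051). Its partial and non-coding models are then left out. Thresholds of 1.5-fold gave 3 lower and 1 higher, and of 1.2-fold 14 lower and 2 higher. MVK, ELOVL5 and ACSL1 lie so close to 0 that a common sum or centring put them above it, leaving 23 of 32 below 0. Depth is unknown, so low genes such as ACAT2, FDPS and TM7SF2 have no precision.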
